A study of Mus musculus with 6 samples.

Results

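Alx4, Hand2, Tbx2 and Tbx3 are transcription factor genes that pattern the limb bud along the axis from thumb to little finger, and their mRNA was read from mouse distal limb bud tips with and without raised Meis2. They were taken by gene symbol from a table of 12065 genes, in which each of the 4 symbols had 1 row (Alx4 as ENSMUSG00000040310, Hand2 as ENSMUSG00000038193, Tbx2 as ENSMUSG00000000093 and Tbx3 as ENSMUSG00000018604). The study has 6 libraries of polyA RNA. The 3 control pools came from R26Meis2a-IRES-EYFP/Meis2a-IRES-EYFP embryos, which carry a silent Meis2a transgene with a yellow fluorescent reporter on both copies of the Rosa26 locus. The 3 overexpression pools came from HoxB6CreER;R26Meis2a-IRES-EYFP/Meis2a-IRES-EYFP embryos, in which CreER, a Cre recombinase that tamoxifen activates, is driven by HoxB6 sequences and turns the transgene on. All mothers received 0.8 mg of 4-hydroxy-tamoxifen at embryonic day 8.3, so the genotypes differ in Cre itself as well as in Meis2. Each pool joined the tips of 2 embryos, and each genotype had 1 pool at 37, 1 at 38 and 1 at 39 somites, so replicates 1 to 3 differ in stage and the spread within a genotype holds stage as well as embryos. The labels do not say whether the tips were of forelimbs, hindlimbs or both. Tbx5, the forelimb T-box gene, and Tbx4, its hindlimb counterpart, had control means of 33.8 ± 7.32 and 66.6 ± 5.43 CPM (SD, n = 3), named here after their values were seen.

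The limb bud is patterned across its width by a signalling centre at the posterior margin that secretes Sonic hedgehog (Shh). Hand2, a basic helix-loop-helix factor, occupies the posterior mesenchyme before Shh appears and is needed for Shh to be switched on, while Gli3 in its repressor form holds Hand2 in the posterior part. Alx4, a paired-type homeodomain factor, is transcribed in the anterior mesenchyme, and mice that lack it form an extra patch of Shh at the anterior margin and extra anterior digits. Tbx2 and Tbx3 are closely related T-box repressors that are transcribed in stripes along the limb margins, where the posterior stripe has been tied to digit identity, and loss of Tbx3 reduces posterior skeletal elements. Meis2 belongs to the TALE class of homeobox genes and is normally kept out of the distal limb.

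Depth was 7622698 to 15395450 recovered reads per library. Values are in CPM, read counts scaled to an equal effective library size by the authors, and 1 read was worth 0.0647 to 0.129 CPM. Meis2 stood at 20.6, 15.3 and 13.8 CPM in control pools of 37, 38 and 39 somites and at 41.3, 33.4 and 28.2 CPM in the overexpression pools, so the 2 genotypes did not overlap and the labels hold for the targeted gene. Reads of the transgene and of the endogenous gene cannot be told apart in this value. All 9 limb mesenchyme markers were measured, with summed levels of 1817 to 2155 CPM in controls and 1741 to 2007 CPM in overexpression pools. With limma 0 were called (adjusted p under 0.05), beside 1.47% of all genes. At an unadjusted p under 0.05 in limma there were 5, beside 1918 of all 12065 genes. By sign 6 were higher and 3 lower. When the fit also held somite number, 3 were called (1 higher and 2 lower), beside 2.82% of all genes. Ectoderm and apical ridge markers were lower in overexpression pools for 23 of 23 measured genes, with summed levels of 538 to 597 CPM against 780 to 822 CPM. Of these, 9 were called as lower (Epcam, Cdh1, Trp63, Fgf8, Fgf4, Fgf9, Sp6, Sp8 and Rspo2), beside 0.68% of all genes. Erythroid markers were higher for 14 of 14, at 4110 to 4912 CPM against 2380 to 3479 CPM, and endothelial markers for 13 of 14, at 329 to 347 CPM against 260 to 298 CPM. Called as higher were 3 erythroid markers (Hba-x, Hbb-b2 and Slc4a1) and 1 endothelial marker (Kdr), beside 0.787% of all genes. The 3 measured macrophage markers summed to 10.1 to 13.3 CPM against 11.0 to 14.2 CPM, the 3 nerve and neural crest markers to 27.6 to 30.0 CPM against 32.2 to 36.4 CPM, and Chrna1, the 1 measured muscle marker, to 3.37 to 3.76 CPM against 3.71 to 6.53 CPM. The defining genes Pax3, Myod1 and Sox10 are not listed in the table. The part of these shifts in the results below was not tested beyond the mesenchyme scaling given with each gene.

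The genotypes were compared with limma on log2(CPM + 1), and a gene counted as called where its p, adjusted by Benjamini-Hochberg over all 12065 genes, was under 0.05. Of the 4 genes, Alx4 was called, as higher in overexpression pools, and Hand2, Tbx2 and Tbx3 were not. Of all genes tested, 1.47% were called in either direction, 0.787% as higher and 0.68% as lower. The genotypes did not overlap for Alx4 and did overlap for the rest, against 20.7% of all genes without overlap in either direction and 10.4% without overlap and higher.

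Alx4 rose in the tips with raised Meis2, in which its mean level was 2.27 times that of controls. It stood at 6.44, 7.33 and 7.67 CPM in the control pools of 37, 38 and 39 somites, from 68, 84 and 64 reads. In the overexpression pools of the same stages it stood at 16.3, 14.9 and 17.5 CPM, from 174, 115 and 270 reads. The lowest overexpression pool was 1.94 times the highest control pool, and the 95% Poisson intervals of those pools, 12.3 to 17.9 CPM and 5.90 to 9.79 CPM, did not meet. These intervals cover counting error only. The means were 7.14 ± 0.633 CPM in controls and 16.2 ± 1.28 CPM in overexpression pools (SD, n = 3 each). The log2 fold change of log2(CPM + 1) was 1.08 (SE 0.11, 95% interval 0.83 to 1.33, limma adjusted p = 0.00129). By p this was rank 24 of the 12065 genes, and among genes ordered from the highest rise to the deepest fall it was rank 51. In whole tissue, more cells that transcribe Alx4 and more Alx4 mRNA per cell cannot be told apart, and the same holds for every value given here.

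**Figure D1:**
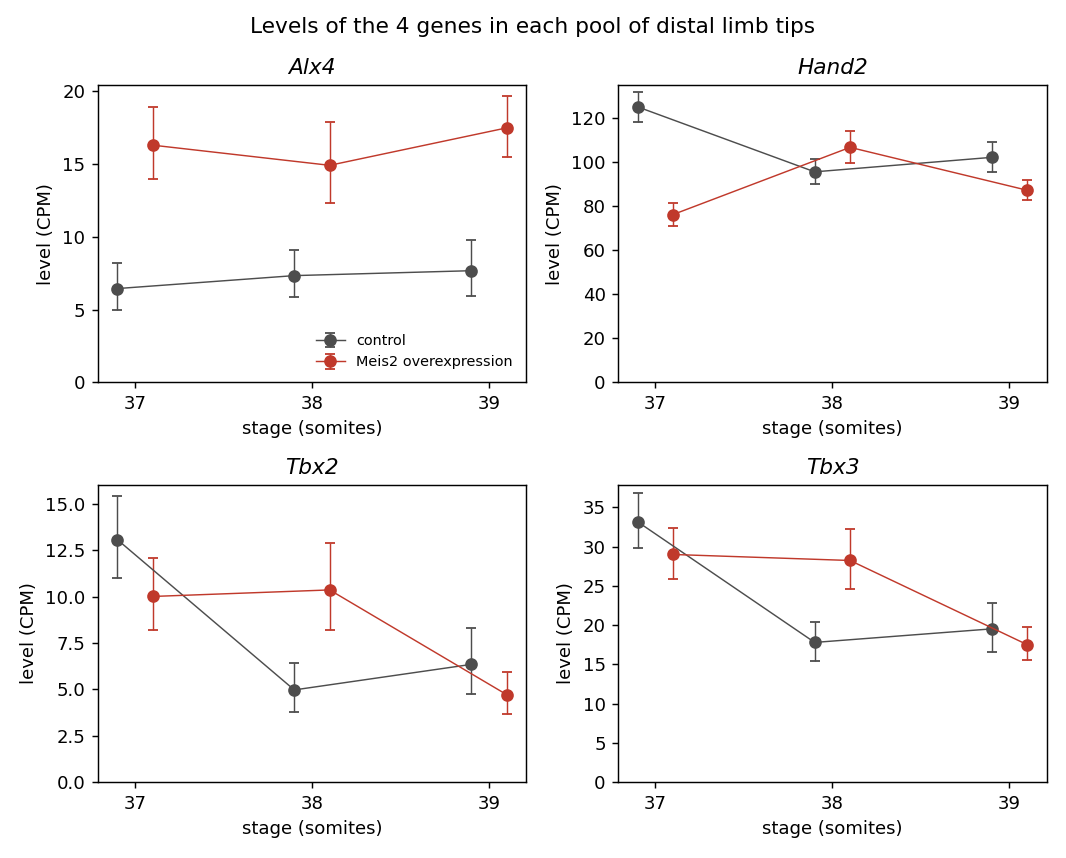
Levels of Alx4, Hand2, Tbx2 and Tbx3 in CPM (vertical axes, from 0) by stage in somites, with control pools in grey and Meis2 overexpression pools in red; each point is 1 pool of 2 embryos and bars are 95% Poisson intervals of its reads. The Alx4 points of overexpression pools (14.9 to 17.5 CPM) all lie above those of controls (6.44 to 7.67 CPM), while the groups overlap for the other genes.

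The rise of Alx4 was present at every stage. The overexpression pool had 2.53 times the control level at 37 somites, 2.03 times at 38 and 2.28 times at 39. Within a genotype the coefficient of variation of Alx4 was 8.86% in controls and 7.93% in overexpression pools. Alx4 showed no spread that can be told apart from counting error, as the 95% Poisson intervals of its pools overlapped within each genotype. Its slope per somite was 0.08 on the log2 scale (SE 0.07, limma adjusted p = 0.963), and a term for a change of the genotype difference with stage was -0.06 per somite (SE 0.15, adjusted p = 1.00 after rounding). No gene of the table passed for that term with limma, and 240 had an unadjusted p under 0.05, which is 1.99% of genes. Alx4 was called in all 18 alternative fits, with log2 fold changes of 0.80 to 1.19 and adjusted p of 1.80e-07 to 0.00911. Among them, the fit without a filter repeats the main fit, since the filter removed 0 genes. Under scaling to equal limb mesenchyme markers (Prrx1, Prrx2, Twist1 and Pdgfra), which shifts the median of all genes by -0.19, it was 0.89. These are part of the 9 mesenchyme markers, and all were higher in overexpression pools (log2 fold changes of 0.37, 0.23, 0.04 and 0.11). Of the 9, 3 were lower by sign, among them Hoxd13 (-0.74) and Hoxa13 (-0.78), and this scaling leaves those out.

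No near-identical transcript of another gene was found for Alx4. Its locus overlaps Ext2, a heparan sulphate polymerase gene on the opposite strand, with 0 shared exonic bases in GENCODE M21. Ext2 had means of 41.3 CPM in controls and 41.8 CPM in overexpression pools (log2 fold change 0.02, adjusted p = 0.922).

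Hand2 was the most abundant of the 4 genes and was not called between genotypes. Control pools of 37, 38 and 39 somites had 125, 95.7 and 102 CPM, and the overexpression pools had 76.3, 107 and 87.4 CPM. The 38-somite overexpression pool lay above 2 of the 3 controls, so the groups overlapped. The means were 108 ± 15.5 and 90.2 ± 15.4 CPM (SD, n = 3 each), and the log2 fold change was -0.26 (SE 0.13, 95% interval -0.54 to 0.02, limma adjusted p = 0.352). Stage by stage the overexpression pool had 0.610, 1.12 and 0.854 times the control level. The pools at 37 somites were the farthest apart, and their Poisson intervals (71.2 to 81.7 CPM and 119 to 132 CPM) did not meet, but there is 1 pool of each genotype at that stage. The term for a change of the genotype difference with stage was 0.24 per somite (SE 0.14, adjusted p = 1.00 after rounding). Hand2 was lower in all 18 alternatives and was called in 1 of them, with limb mesenchyme scaling (log2 fold change -0.44, adjusted p = 0.0298), of which -0.19 is the shift of the median gene. In GENCODE M21 the Hand2 transcript shares 461 exonic bases with Hand2os1, a noncoding gene on the opposite strand that is not listed in the table. The library kit is named without a statement of strand, so reads from the shared bases cannot be assigned to one of the pair.

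RefSeq promoters were found for 1 of the 4 genes, Hand2, and its upstream sequence is shown as the available one, so that the letters bound by these classes of factor can be looked for in it. The run gives the 250 bases before the start of Hand2 in GRCm38.p6, plus strand, chr8:57320733-57320982, 5′ to 3′, with capitals for every match to CANNTG, the E-box of basic helix-loop-helix factors, and to TAAT or its reverse ATTA, the core of paired-type homeodomain sites.
Hand2: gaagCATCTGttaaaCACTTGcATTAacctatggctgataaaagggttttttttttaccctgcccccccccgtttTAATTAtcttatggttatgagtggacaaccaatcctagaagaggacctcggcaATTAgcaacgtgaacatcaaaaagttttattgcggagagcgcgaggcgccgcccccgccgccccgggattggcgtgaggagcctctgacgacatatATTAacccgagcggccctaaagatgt
On both strands CANNTG had 2 matches, and 66.0% of 27025 promoters of the same length hold at least 1. TAAT had 5 matches, of which a pair overlaps as TAATTA, and 55.3% of promoters hold at least 1. TGACAG, a core bound by Meis factors, had 0 matches (16.0% of promoters hold it), and GTGTGA, letters bound by T-box factors, had 0 (12.2%). A match describes the letters and is not evidence of binding.

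Tbx3, which showed the second highest level per length of the 4, was not called. Control pools of 37, 38 and 39 somites had 33.1, 17.8 and 19.5 CPM, and overexpression pools had 29.0, 28.2 and 17.5 CPM. The highest and the lowest of the 6 values fell in different genotypes, a control pool at 37 somites and an overexpression pool at 39. The means were 23.5 ± 8.41 and 24.9 ± 6.41 CPM (SD, n = 3 each), with a log2 fold change of 0.10 (SE 0.23, 95% interval -0.42 to 0.62, limma adjusted p = 0.862). The direction turned negative under limb mesenchyme scaling (-0.09) and without any 1 of control replicates 2 and 3 and overexpression replicates 1 and 2 (-0.06 to -0.00), so no direction is given for Tbx3. GENCODE M21 gives 115 shared exonic bases with Tbx3os1, an antisense gene that is not listed in the table.

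Tbx2 had the same ups and downs at a lower level. Control pools had 13.1, 4.97 and 6.35 CPM at 37, 38 and 39 somites, from 138, 57 and 53 reads. Overexpression pools had 10.01, 10.4 and 4.72 CPM, from 107, 80 and 73 reads. As for Tbx3, the pools at 37 somites and the overexpression pool at 38 were high, and the other 3 were low. The means were 8.13 ± 4.33 and 8.36 ± 3.16 CPM (SD, n = 3 each), and the log2 fold change was 0.07 (SE 0.33, 95% interval -0.66 to 0.81, limma adjusted p = 0.933). It too turned negative under limb mesenchyme scaling (-0.12), with edgeR (-0.01) and without any 1 of the same 4 libraries (-0.19 to -0.04). The log2 fold change of Alx4, 1.08, lies above the interval for Tbx2.

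The spread of Tbx2 and Tbx3 within a genotype was several times that of Alx4, which could not be told apart from counting error. The coefficient of variation was 53.3% in controls and 37.8% in overexpression pools for Tbx2, and 35.8% and 25.7% for Tbx3. For Hand2 it was 14.4% and 17.1%. Between 37 and 38 somites the control level of Tbx3 dropped from 33.1 to 17.8 CPM, and the 95% Poisson intervals of these pools (29.8 to 36.8 and 15.4 to 20.4 CPM) did not meet. In overexpression pools the level at 38 somites, 28.2 CPM, was close to the 29.0 CPM at 37, and the lower value came at 39 somites. With 1 pool for each stage and genotype, stage cannot be told apart from the particular pool.

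In a fit with genotype and somite number, the slope of Tbx3 was -0.36 per somite (SE 0.09, limma adjusted p = 0.244) and that of Tbx2 was -0.47 (SE 0.14, adjusted p = 0.381). Neither was called, beside 0.356% of all genes called for a slope in either direction. Without control replicate 2 the slope of Tbx3 passed (-0.36, adjusted p = 0.0490). Hand2 had a slope of -0.02 (SE 0.08, adjusted p = 0.987). Meis2 was also lower at each later stage in both genotypes, with a slope of -0.27 (SE 0.05, adjusted p = 0.0893) that was not called.

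Ratios of a pair of genes within a library depend on library scaling only through the pseudocount. Hand2 reads outnumbered Alx4 reads by 19.4, 13.1 and 13.3 to 1 in control pools and by 4.69, 7.17 and 5.004 to 1 in overexpression pools. These groups did not overlap. The mean log2 ratio of Alx4 to Hand2 was -3.73 ± 0.31 in controls and -2.39 ± 0.32 in overexpression pools (SD, n = 3 each), a difference of 1.34. The exact permutation test gave two-sided p = 0.1, the smallest that 3 pools against 3 can give, or 0.2 after Benjamini-Hochberg adjustment over the 6 pairs of genes compared. Alx4 to Tbx2 differed by 1.01 and Alx4 to Tbx3 by 0.98, each with exact p = 0.1 (adjusted 0.2) and without overlap on this scale. For Alx4 to Tbx2 that rests on the pseudocount: without it, the ratio of CPM was 1.47 in the highest control pool and 1.44 in the lowest overexpression pool, so the groups overlapped (exact p = 0.2).

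**Figure D2:**
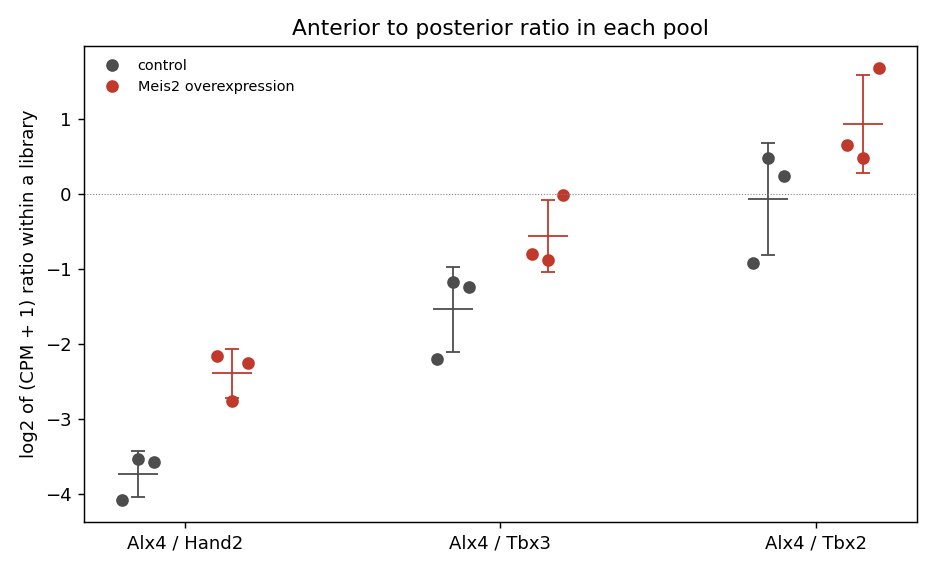
Log2 ratio of Alx4 to Hand2, Tbx3 and Tbx2 within each library, computed on CPM + 1, for control (grey) and Meis2 overexpression (red) pools; short lines and bars are means and SD over 3 pools. The shift of the Alx4 to Hand2 ratio from -3.73 to -2.39 exceeds the SD of either group, and the Alx4 to Tbx2 points of the groups nearly touch.

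Ratios among the posterior genes showed no such separation. The log2 ratio of Tbx3 to Tbx2 was 1.47 ± 0.19 in controls and 1.502 ± 0.17 in overexpression pools (exact p = 0.8), and it stayed within a range of 0.42 over the 6 libraries, the smallest range of the 6 pairs. Hand2 to Tbx2 went from 3.67 ± 0.44 to 3.34 ± 0.57 (exact p = 0.6), and Hand2 to Tbx3 from 2.19 ± 0.27 to 1.83 ± 0.45 (exact p = 0.2).

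Levels of different genes were compared per kilobase of the longest coding transcript in GENCODE M21, which was 7056 bases for Alx4, 2351 for Hand2, 3626 for Tbx2 and 4982 for Tbx3. On this scale Hand2 was highest in controls, at 45.8 ± 6.59 CPM per kb, followed by Tbx3 at 4.71 ± 1.69, Tbx2 at 2.24 ± 1.19 and Alx4 at 1.01 ± 0.09 CPM per kb (SD, n = 3). Control ranges of Tbx3 (3.57 to 6.65) and Tbx2 (1.37 to 3.60 CPM per kb) touched, while Alx4 (0.913 to 1.09 CPM per kb) lay below every Tbx2 value. In overexpression pools Alx4, at 2.30 ± 0.18 CPM per kb, lay within the range of Tbx2 (1.30 to 2.86 CPM per kb), and the order of the other genes was the same. By control CPM, not per length, 81.2% of the genes in the table were lower than Hand2, 41.4% lower than Tbx3, 19.5% lower than Tbx2 and 17.5% lower than Alx4.

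The genes with the most similar profile were sought among 9636 named genes whose mean reached 5 CPM, by the root mean square difference of log2(CPM + 1) over the 6 libraries after each gene's own mean was removed. For Tbx2 the closest of them was Tbx3 (0.148). Only 4 genes were closer to Tbx3 than Tbx2 was, led by Prdm1 (0.133), Sema6a (0.134) and Myc (0.140). Prdm1 encodes a zinc finger repressor, Sema6a a transmembrane semaphorin and Myc a growth regulator. Tbx2 was followed by Dlk1, a membrane protein of the Notch ligand family, at 0.182 and Prdm1 at 0.252. Dlk1 showed the pattern of 3 high and 3 low pools, with 25.7, 13.2 and 13.4 CPM in control pools of 37, 38 and 39 somites and 23.5, 27.2 and 14.5 CPM in overexpression pools. None of these genes was called between genotypes. They were picked for likeness to Tbx2 or Tbx3 over the same libraries, so this and the shared pattern are no separate result.

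For Alx4 the closest genes were Hddc3 (0.113), Igf1 (0.130) and Snapc1 (0.189). Hddc3 encodes a metal-dependent phosphohydrolase, Igf1 the insulin-like growth factor 1, and Snapc1 a subunit of the complex that activates small nuclear RNA genes. These genes shared the shape of 3 low control pools and 3 high overexpression pools. They were picked for likeness to Alx4 over the same libraries, so the shared shape and their rise are no separate result. Snapc1 stood at 12.5, 13.0 and 11.0 CPM in controls and at 24.4, 20.6 and 21.7 CPM in overexpression pools (log2 fold change 0.82, adjusted p = 0.00558). For Hand2 the closest were Znhit1 (0.073), Pigt (0.078) and Ndufa13 (0.080), genes of chromatin remodelling, of glycolipid anchor attachment and of respiratory complex I. Hand2 itself had a root mean square of 0.222, so these distances are set beside small movements, and 9058 genes were closer to Hand2 than Tbx3 was.

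**Figure D3:**
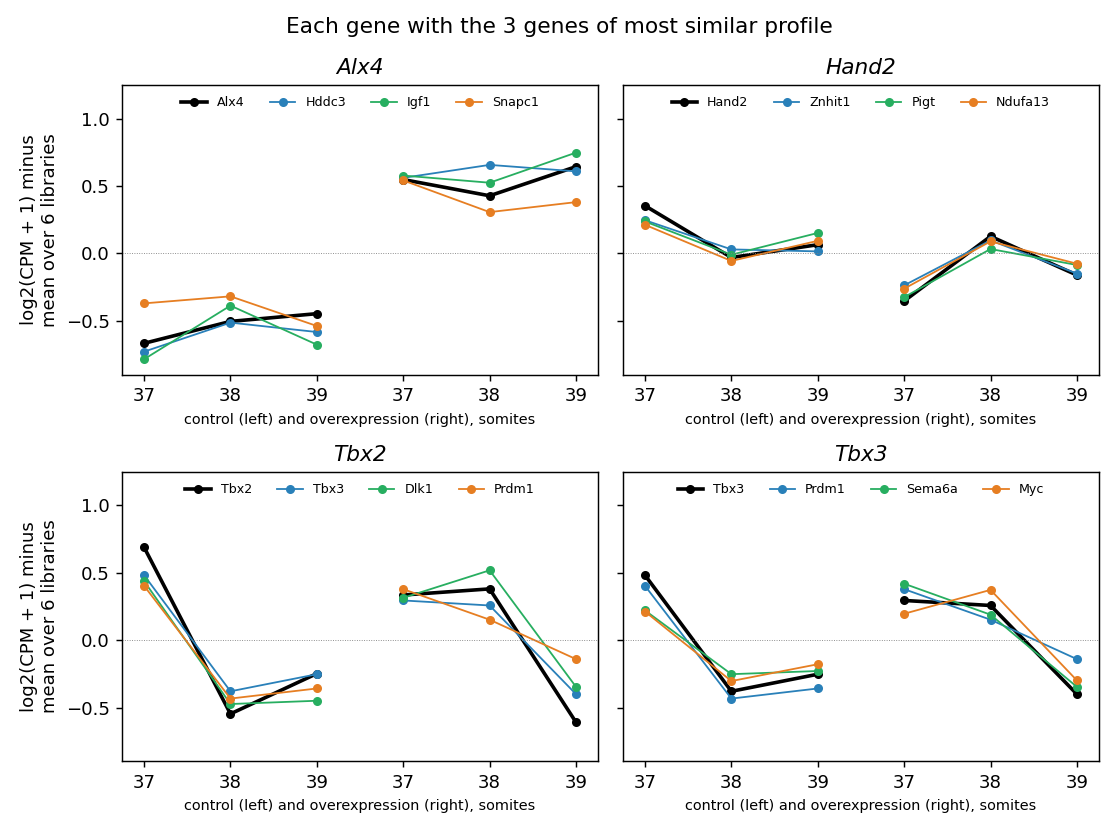
Log2(CPM + 1) minus each gene's mean over 6 libraries (vertical axes) for the 4 genes (black) and the 3 genes of most similar profile, with control pools of 37 to 39 somites on the left and overexpression pools on the right of each panel. Alx4 and its 3 closest genes step up between genotypes, while Tbx2 and Tbx3 are high in both 37-somite pools and the 38-somite overexpression pool.

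The other anterior genes did not follow Alx4 past the threshold. Of 10 genes on an anterior limb list 5 were measured, of which Alx4 rose, 0 fell and 4 did not pass, beside 1.47% of all genes called, with a median log2 fold change of -0.18 against -0.00 over all genes. Gli3, the repressor of posterior fate, was at 233 ± 1.24 CPM in controls and 263 ± 20.03 CPM in overexpression pools (log2 fold change 0.17, adjusted p = 0.230). Its groups did not overlap, but lay close, at 234 CPM in the highest control pool and 240 CPM in the lowest overexpression pool. Of all genes, 20.7% had no overlap in either direction and 10.4% had none and were higher. The zinc finger gene Zic2 was at 99.6 ± 7.26 and 89.2 ± 17.4 CPM (log2 fold change -0.18, adjusted p = 0.515).

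Of 15 genes on the list for Shh signalling and posterior limb, 13 were measured, and 0 rose, 0 fell and 13 did not pass with limma, beside 1.47% of all genes called. At an unadjusted p under 0.05 there were 3, beside 1918 of all 12065 genes, and DESeq2 called 1 and edgeR 0. By sign 4 were higher and 9 lower, with a median log2 fold change of -0.26. Shh, the posterior signal that depends on Hand2, was at 36.5 ± 9.86 CPM in controls and 24.2 ± 4.13 CPM in overexpression pools (log2 fold change -0.55, unadjusted p = 0.0122 in limma, adjusted p = 0.182). Its receptor and target Ptch1 was at 194 ± 22.9 and 193 ± 22.4 CPM (log2 fold change -0.01), its target Gli1 at 74.7 ± 7.56 and 78.8 ± 8.301 CPM (0.08), and the BMP antagonist Grem1 at 193 ± 40.4 and 195 ± 19.4 CPM (0.03). Hoxd11 was the 1 gene of the list whose genotypes did not overlap, at 213 ± 7.14 and 174 ± 23.4 CPM (log2 fold change -0.30, adjusted p = 0.153). Of all genes, 20.7% had no overlap in either direction and 10.4% had none and were lower. When the fit also held somite number, Hoxd13 (-0.74, adjusted p = 0.000371) and Hoxd12 (-0.38, adjusted p = 0.0270) fell, while Hand2 stayed at -0.26 (adjusted p = 0.346), and 2.82% of all genes were called.

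**Figure D4:**
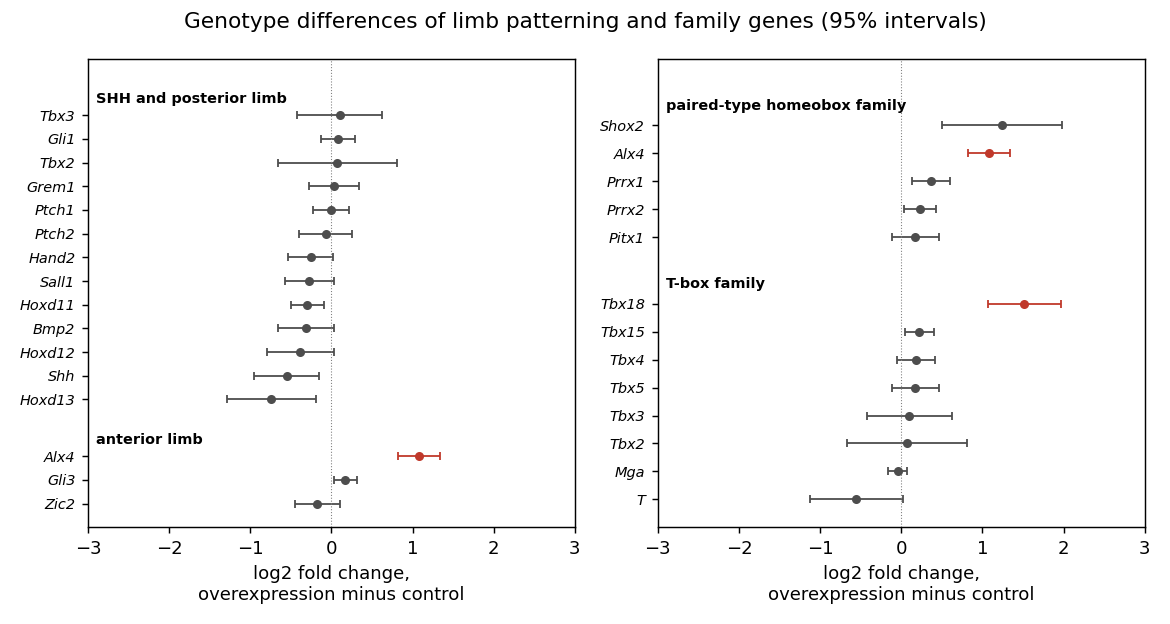
Log2 fold change of log2(CPM + 1), overexpression minus control, with 95% limma intervals over 3 pools a genotype, for reported genes of the anterior and the posterior list (left) and for the T-box and paired-type homeobox families (right); red marks adjusted p under 0.05. Alx4 (1.08) and Tbx18 (1.52) are the called genes, and the intervals of Hand2, Tbx2 and Tbx3 include 0.

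Within their gene families, the 4 genes stood as follows. Of 17 T-box genes listed 8 were measured, and 1 rose, 0 fell and 7 did not pass, beside 1.47% of all genes called and 0.787% called as higher. The riser was Tbx18, a proximal limb gene, at 9.62 ± 1.90 CPM in controls and 29.9 ± 8.58 CPM in overexpression pools (log2 fold change 1.52, adjusted p = 0.00655). Tbx2 and Tbx3 were not called in any of their 18 alternatives. Of 20 paired-type homeobox genes 6 were measured, and Alx4 was the 1 called, as higher (0.787% of all genes), with 5 higher and 1 lower by sign. When the fit also held somite number, 3 of these 6 rose, Shox2, Prrx1 and Alx4, of which the first pair was picked after the values were seen, beside 2.82% of all genes called in that fit.

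Hand2 binds DNA in pairs with other basic helix-loop-helix proteins. A list of such partners and of relatives, Id proteins among them, had no called gene. Of 11 listed genes, Hand2 itself included, 9 were measured with 0 rises and 0 falls in limma, beside 1.47% of all genes called. At an unadjusted p under 0.05 in limma there was 1, beside 1918 of all 12065 genes, and the median log2 fold change was 0.00. Those with the smallest p besides Hand2 were Twist2 (10.8 ± 2.14 against 15.0 ± 2.00 CPM, log2 fold change 0.45, adjusted p = 0.182), and the Id proteins Id3 and Id1, which lack a DNA-binding region (-0.12 each, adjusted p = 0.505 and 0.557).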

How the data were processed

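The authors deposited 1 table of CPM values. Per the submitters' processing notes, the tools were cutadapt 1.2.1, edgeR (version not given in the sources used here) and RSEM 1.17, and the build was NCBIM37. Every deposited CPM value was a whole multiple of 1 step per library (100% within 0.001), so reads were recovered. They gave the read numbers, the Poisson intervals and the count-based alternatives, while the main tests used CPM. Overexpression replicate 3, the deepest library, has few low values to set its step. A filter (1 CPM or more in 3 libraries) left all 12065 genes.

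The main test was limma 3.58.1 (R 4.3.3; lmFit, then eBayes with a trend) on log2(CPM + 1), two-sided, with genotype as its term and Benjamini-Hochberg adjustment over all genes. This scale understates changes of low genes. Slopes used genotype and somite number as terms, and interactions added their product. The prior had 6.03 degrees of freedom. Pools count as replicates. The fit was checked on simulated data that gave all genes the same relative spread beyond counting error. That spread was set below the one seen for Tbx2 and Tbx3, so the check does not cover genes as variable as these.

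The 4 genes and the gene lists were chosen with earlier results of these data known. Named were the 4 genes, all measured anterior and posterior genes, called members of the other lists or else up to 4 with the smallest p, Meis2, and the 3 nearest profiles of each gene; exceptions are marked, and 2 anterior genes are counted but not reported by name here. Copies were sought in GENCODE M21 transcripts with blastn (97% identity, 100 bases or more, 50% of the shorter one). Its build is later than that of the authors, so coordinates of the measured genes are not given. Those printed for the Hand2 promoter are also of a later build.

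Alternatives were other pseudocounts, filters and scalings, robust eBayes, quasi-likelihood in edgeR 4.0.16, DESeq2 1.42.0, a somite covariate, a replicate block, and each library left out. For every gene, the alternative without a filter is the same as the main fit, so its agreement carries no weight.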

Additional observations from a re-analysis of the deposited data

How the results depend on the processing

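Alx4 was called as higher under every alternative tried, with log2 fold changes of 1.02 to 1.14 when 1 library was left out. Its ratios kept their sign under both other pseudocounts and each library left out, at 1.05 to 1.52 to Hand2, 0.58 to 1.28 to Tbx2 and 0.65 to 1.16 to Tbx3. Hand2 passed under limb mesenchyme scaling (-0.44) and ranged from -0.39 to -0.15 with 1 library left out. Tbx2 and Tbx3 have no stable sign: under mesenchyme scaling they were at -0.12 and -0.085, Tbx2 with edgeR at -0.0096, and with 1 library left out they ran from -0.19 to 0.43 and from -0.064 to 0.37. The genes called numbered 177, against 86 with robust eBayes without a trend, 290 with DESeq2 and 340 with somite number, and 43 to 147 with 1 library left out (75 without control replicate 2, 56 without control replicate 3, 107 without overexpression replicate 1, 43 without overexpression replicate 2). Of the posterior list 0 genes were called, against 1 with DESeq2, 2 with somite number and 1 with the replicate block. With 1 library left out, the slopes of Hand2 ran from -0.17 to 0.10 and of Tbx3 from -0.45 to -0.25, and the interaction terms of Alx4 from -0.23 to 0.11, of Hand2 from -0.14 to 0.62, of Tbx2 from -0.77 to 0.76 and of Tbx3 from -0.47 to 0.51. At a pseudocount of 5 the interaction of Tbx2 was 0.022. The cause of these changes was not tested.

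Replicate numbers equal the stage. Libraries of the same number deviated from their group means with correlations of 0.03, -0.15 and 0.38 across genes. With 3 pools per genotype these correlations cannot decide whether pools of the same stage deviate together. With the replicate block 258 genes were called, against 177 without it. With the replicate block Alx4 stayed called (1.08, adjusted p = 0.00320) and Hand2, Tbx2 and Tbx3 stayed uncalled.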
